A study of Mus musculus with 4 samples.

Results

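The 45 genes described here build, load and drive the DNA replication machinery, supply its nucleotides, or carry a T cell from G1 into S phase. They were chosen by name and function: a gene entered through a probe set of the array whose single gene symbol is on the list, and where a gene had several probe sets the one with the highest mean signal over the 4 arrays stood for it. All 45 had such a probe set, of 18193 genes with one on the array, and all 45 passed the filter on dim genes, as did 12819 genes in all. The cells were CD4 T cells of 2D2 Tg mice, whose transgenic T cell receptor recognises myelin oligodendrocyte glycoprotein, and were either wildtype or miR-146a-deficient. Naive cells of both genotypes were sorted and grown for 3 days on plate-bound anti-CD3 (5 µg/ml) with soluble anti-CD28 (1 µg/ml), so every array holds stimulated cells and no unstimulated cells were analysed here. RNA from 2 samples of each genotype was hybridised to Mouse Genome 430 2.0 arrays. The labels call these biological replicates without naming mice or cultures as their source. The p-values thus rest only on the spread between these samples, which the fit shares across genes. They give no age, and do not say how miR-146a was removed or in which cells. The deletion itself was not checked here, since no gene symbol on the array is that of the microRNA.

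Replication begins when the origin recognition complex, with Cdc6 and Cdt1, loads the ring-shaped MCM helicase onto DNA during G1. Kinases and the factors Cdc45 and GINS then switch the helicase on, polymerase alpha with primase starts each strand, and polymerases delta and epsilon, held by the sliding clamp PCNA, extend it. Cyclins D and E drive this transition through the E2F transcription factors. Naive T cells, which are out of cycle, enter the cycle when their receptor and CD28 are engaged. The microRNA that differs between the genotypes, miR-146a, is known as a brake on NF-kB signalling. Its mature strand in RefSeq (GRCm38.p6, chr11:43374435-43374456, minus strand) is shown because its loss defines the comparison, with bases 2 to 8, the seed that pairs with target messages, in capitals.
mmu-miR-146a-5p: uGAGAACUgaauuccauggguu

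The replication genes were read at nearly the same level in both genotypes. At an adjusted p below 0.05 in limma's fit over all tested genes, none of the 45 passed in either direction, while 23 of the 12819 genes did, or 0.179% (0.172% higher and 0.0078% lower in the deficient cells). At an unadjusted p below 0.05 the same fit had 1 member, Fen1, higher and none lower, against 5.25% of all tested genes in either direction (2.83% higher and 2.42% lower). The median change over the members was 0.01 on the log2 scale, deficient minus wildtype, and over all tested genes it was -0.01. Of the members, 24 were higher and 21 lower in the deficient cells, with 35 changing by less than 0.1, 8 by 0.1 to 0.2 and 2, Fen1 and E2f2, by more. These log2 values carry a pseudocount of 14.7 signal units, which understates changes of dim genes such as Tyms.

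**Figure D1:**
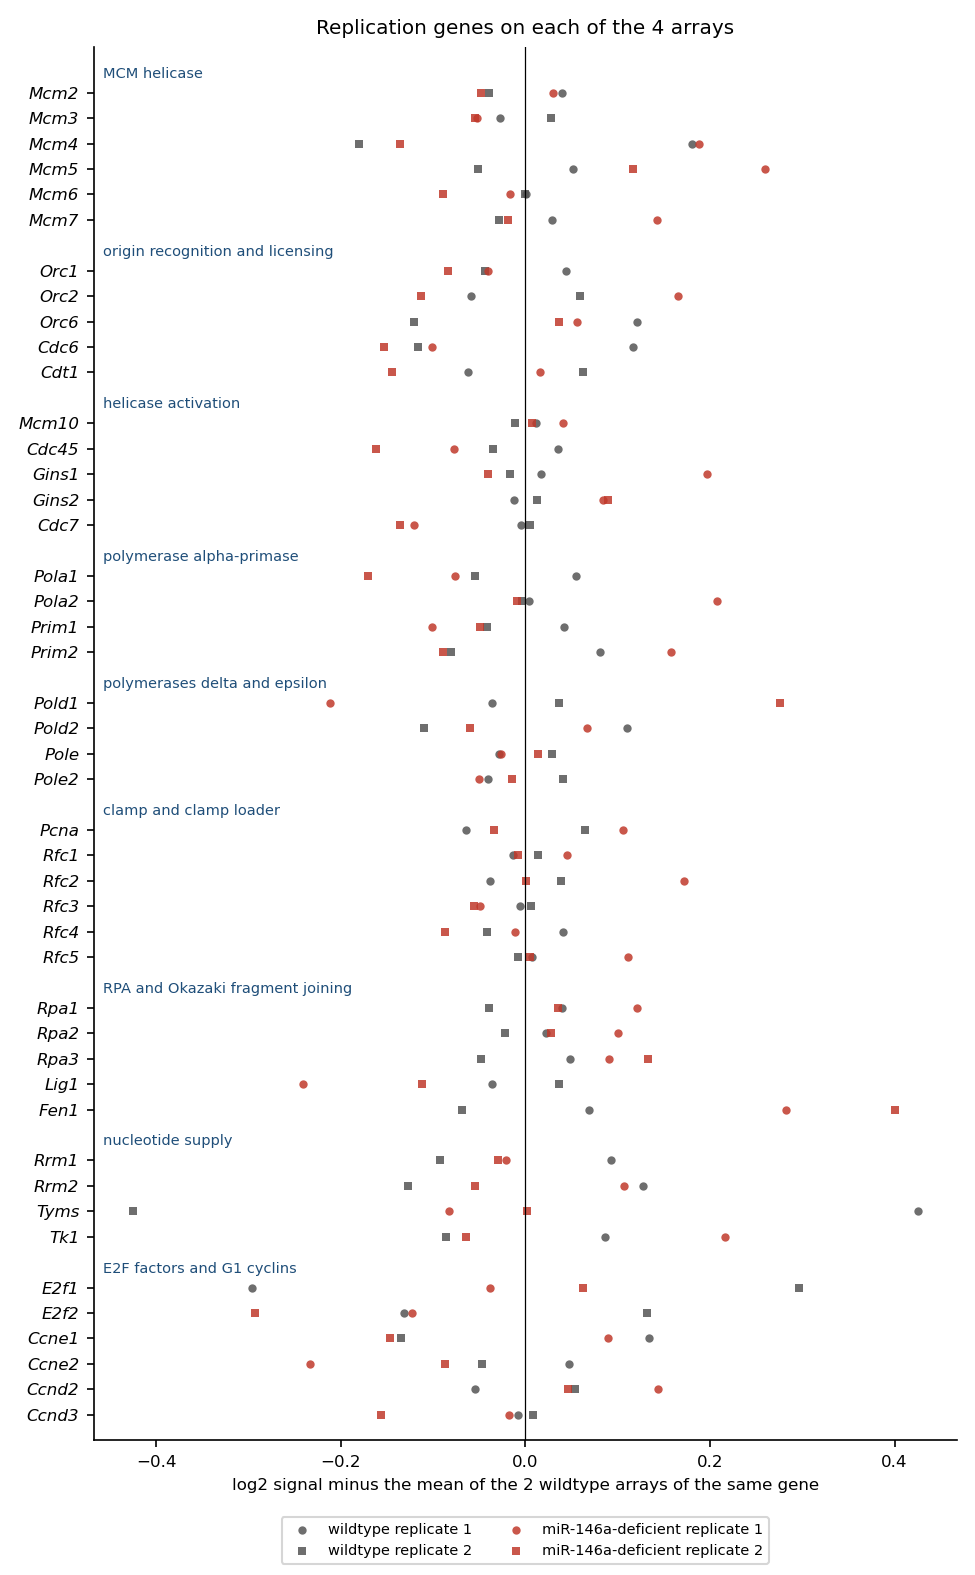
Log2 signal of each of the 45 replication genes (rows, by role) on the 2 wildtype arrays (grey) and the 2 miR-146a-deficient arrays (red), as the difference from the mean of the 2 wildtype arrays of that gene. Circles are replicate 1 and squares replicate 2. Red and grey points interleave in 30 of the 45 rows, and Fen1 is the row where the red points lie furthest to the right.

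The intervals say how large a difference could have gone unseen. The 95% interval of the moderated fit lay within 1.5-fold either way for 44 of the 45 members, Tyms being the exception, against 57.3% of all tested genes and 92.7% of the 6341 with a mean signal of 500 or more, a group that holds 43 of the members. Apart from Tyms, the lowest lower bound was 0.698-fold (E2f2) and the highest upper bound 1.49-fold (Fen1). Zero lay inside the interval of 44 members. For a typical member a change of about 0.71, or 1.64-fold, would have been needed to reach the p of the last gene called. Smaller shifts would thus not have reached that p with these 4 arrays. The p needed is that of this fit and would differ if another number of genes passed. The smallest change among the 23 genes that did pass was 0.73. Group values below are mean signal ± SD of 2 arrays, and changes are log2 differences ± SE. Every SE and p is from limma's fit over all tested genes, which shares the spread across genes, unless another fit is named. The brightness of a probe set depends on its sequence, so signals of different genes are not ranked against each other.

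**Figure D2:**
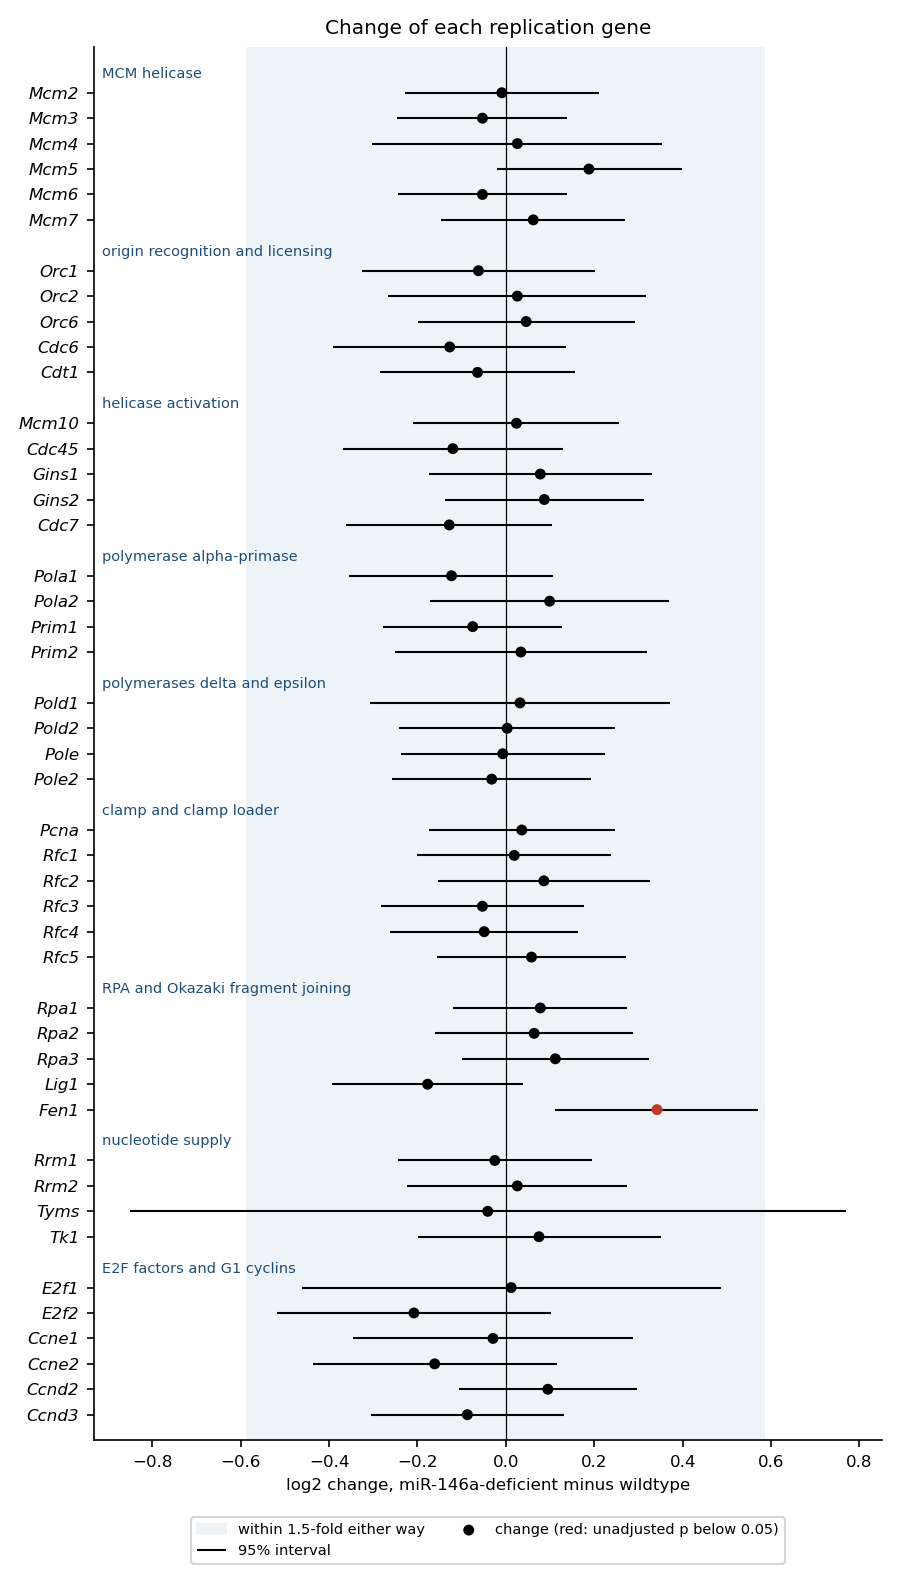
Change of each replication gene (points, log2, miR-146a-deficient minus wildtype) with its 95% interval (lines), by role, and the range within 1.5-fold shaded. The points lie between -0.21 for E2f2 and 0.34 for Fen1, whose interval alone leaves out 0 (red point), and the interval of Tyms alone leaves the shaded range.

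The MCM helicase genes were level between genotypes, with a median change of 0.01 over the 6 subunits. Mcm5, which encodes one subunit of the helicase ring, had signals of 12770 and 11894 in wildtype and of 14760 and 13367 in deficient cells. Both deficient arrays lay above both wildtype arrays. The means were 12332 ± 619 and 14063 ± 985, a change of 0.19 ± 0.09 that did not pass (unadjusted p = 0.0719, adjusted p = 0.953). This probe set carries the mark x, which Affymetrix gives to probes that may also bind other transcripts. The dimmer Mcm5 probe sets, without that mark, gave 0.03 and -0.01, and in both the genotypes overlapped. Mcm7, another subunit of the ring, read 11916 and 11454 against 12894 and 11531. Here the deficient arrays straddled the upper wildtype value, and the change was 0.06 ± 0.09. Mcm2, Mcm3, Mcm4 and Mcm6 had changes of -0.01, -0.05, 0.03 and -0.05. Mcm4 showed the widest replicate gap of the ring, with 8880 and 6910 in wildtype and 8928 and 7126 in deficient cells, while Mcm6 had 10982 and 10977 against 10850 and 10321.

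MCM genes are known targets of E2F factors, so the promoters of the members were searched for E2F letters. RefSeq promoters (GRCm38.p6, 250 bases before to 50 after a gene's start) were found for 37 of the 45 members. The E2F consensus was searched on both strands as TTTCCCGC, TTTCGCGC, TTTGCCGC and TTTGGCGC, with overlapping matches counted. It occurred in at least 1 promoter of 13 members, 35.1% of the 37, against 4.61% of tested genes and 2.60% of all genes in the table. By role it was in 4 of 5 MCM genes and 3 of 5 licensing genes with a promoter, and in 0 of 3 helicase activation and 0 of 4 nucleotide supply genes. The CCAAT box, searched as CCAAT, occurred for 62.2% of members and 42.6% of tested genes, and the GC box, searched as GGGCGG, for 75.7% and 65.9%. The 13 members with an E2F match had changes from -0.21 to 0.19 with a median of -0.05, and the 24 without from -0.13 to 0.34 with a median of 0.02. A match describes these letters in this window and is not a measured binding site. The 5 promoters with 2 or more matches are shown 5′ to 3′ on the gene's strand, with E2F matches in capitals, because 4 of them belong to the helicase ring. They lie at chr1:128359656-128359955 (Mcm6, minus strand), chr1:20820263-20820562 (Mcm3, minus), chr8:75109259-75109558 (Mcm5, plus), chr5:138171834-138172133 (Mcm7, minus) and chr5:151651159-151651458 (Rfc3, minus).
Mcm6: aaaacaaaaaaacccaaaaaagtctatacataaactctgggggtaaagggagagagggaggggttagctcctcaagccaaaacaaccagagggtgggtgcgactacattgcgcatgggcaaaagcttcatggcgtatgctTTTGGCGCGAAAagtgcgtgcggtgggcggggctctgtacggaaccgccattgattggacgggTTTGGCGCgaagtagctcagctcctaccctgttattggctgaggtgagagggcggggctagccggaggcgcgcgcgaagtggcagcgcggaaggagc
Mcm3: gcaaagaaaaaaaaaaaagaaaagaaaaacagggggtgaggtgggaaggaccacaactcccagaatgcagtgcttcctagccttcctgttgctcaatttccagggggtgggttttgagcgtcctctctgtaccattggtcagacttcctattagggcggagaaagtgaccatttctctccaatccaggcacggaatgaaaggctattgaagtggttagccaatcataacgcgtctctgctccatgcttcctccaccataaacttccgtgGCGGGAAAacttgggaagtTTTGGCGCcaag
Mcm5: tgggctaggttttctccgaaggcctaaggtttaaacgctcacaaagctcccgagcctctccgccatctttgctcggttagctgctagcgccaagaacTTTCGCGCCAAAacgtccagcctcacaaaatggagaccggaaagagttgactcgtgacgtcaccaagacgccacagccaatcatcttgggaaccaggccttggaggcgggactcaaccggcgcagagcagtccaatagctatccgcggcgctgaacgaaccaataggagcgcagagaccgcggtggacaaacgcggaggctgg
Mcm7: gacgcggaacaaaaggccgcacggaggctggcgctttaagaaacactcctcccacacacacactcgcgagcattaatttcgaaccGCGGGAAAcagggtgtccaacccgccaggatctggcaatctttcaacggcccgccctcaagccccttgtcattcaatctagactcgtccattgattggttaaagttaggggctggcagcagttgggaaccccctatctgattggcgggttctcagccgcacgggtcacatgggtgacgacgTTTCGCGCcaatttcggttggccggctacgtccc
Rfc3: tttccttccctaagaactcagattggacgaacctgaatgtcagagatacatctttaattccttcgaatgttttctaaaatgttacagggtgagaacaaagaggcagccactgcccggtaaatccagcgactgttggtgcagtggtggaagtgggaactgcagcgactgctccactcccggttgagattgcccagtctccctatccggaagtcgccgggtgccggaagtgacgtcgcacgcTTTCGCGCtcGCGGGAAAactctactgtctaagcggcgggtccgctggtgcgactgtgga
In Mcm6 and Mcm5 a pair of matches on opposite strands overlaps, giving 1 longer run of capitals in each. The change was -0.05, -0.05, 0.19, 0.06 and -0.05 for Mcm6, Mcm3, Mcm5, Mcm7 and Rfc3 in that order, and none passed.

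The genotypes overlapped for each of the 5 genes that place the helicase on DNA. Cdc6, the loading ATPase, had 1897 and 1613 in wildtype and 1630 and 1572 in deficient cells, a change of -0.13 ± 0.11 (unadjusted p = 0.299, adjusted p = 0.974). The higher deficient array lay just above the lower wildtype array. Cdt1, the other loader, which is destroyed once S phase starts, read 8473 and 9233 against 8944 and 8002, a change of -0.06 ± 0.10. Its wildtype values lay inside or above the deficient ones. The origin recognition subunits Orc1, Orc2 and Orc6 changed by -0.06, 0.03 and 0.05, with mean signals of 928 ± 41, 1258 ± 73 and 3278 ± 388 in wildtype cells.

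Genes that switch the loaded helicase on were split in sign. Cdc7, the kinase that phosphorylates the MCM ring, was tightly replicated, with 1531 and 1542 in wildtype and 1412 and 1397 in deficient cells. The genotypes did not overlap, and the change of -0.13 ± 0.10 did not pass (unadjusted p = 0.242, adjusted p = 0.973). Its own residual SD was 0.01. The SE is larger because the moderated fit draws it toward the spread of genes of like signal. Cdc45, a partner of the active helicase, read 1304 and 1241 against 1205 and 1135, again without overlap, a change of -0.12 ± 0.11. Gins1, which encodes a subunit of the GINS complex, had 2322 and 2270 against 2633 and 2232, so that 1 deficient array was high and the other was the lowest of the 4. Its partner Gins2 changed by 0.09 ± 0.10, with all deficient values (1841 and 1848) above the wildtype ones (1721 and 1751). Mcm10, which helps start unwinding, changed by 0.02. The role as a whole had a median change of 0.02.

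Polymerase genes gave no difference past the threshold. Pola1, the catalytic subunit of polymerase alpha, read 2487 and 2305 in wildtype and 2271 and 2126 in deficient cells, a change of -0.12 ± 0.10 (unadjusted p = 0.255, adjusted p = 0.973). The highest deficient value lay just under the lowest wildtype value. Prim1, the catalytic subunit of primase, had 6069 and 5729 against 5495 and 5700, a change of -0.08 ± 0.09. Pola2 and Prim2, their partner subunits, changed by 0.10 and 0.03, opposite in sign. Another bright Prim1 probe set gave 0.10 and another bright Prim2 one -0.14, so the signs of both primase genes depended on the probe set. Within polymerases delta and epsilon the 4 members lay between -0.03 and 0.03. Pold1, the catalytic subunit of polymerase delta, had 3453 and 3634 in wildtype but 3056 and 4291 in deficient cells, so its deficient replicates enclosed both wildtype values. A dimmer Pold1 probe set had the same deficient order, 1610 and 2146. Pole2, an accessory subunit of polymerase epsilon, read 2027 and 2147 against 2014 and 2066. Pold2, an accessory subunit of polymerase delta, read 4287 and 3681 against 4160 and 3809, a change of 0.003 ± 0.11, and Pole changed by -0.01.

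The sliding clamp and its loader were level as well, with a median change of 0.03 over 6 genes. Pcna, the clamp itself, had 22800 and 24941 in wildtype and 25658 and 23290 in deficient cells, a change of 0.04 ± 0.09 with a 95% interval from 0.886-fold to 1.19-fold. The order of the arrays alternated between genotypes. Among the loader subunits Rfc2 read 2117 and 2232 against 2450 and 2175, and Rfc5 read 3300 and 3266 against 3548 and 3293. In each, deficient replicate 1 was the high array and the other deficient array lay among or near the wildtype values. Rfc1, Rfc3 and Rfc4 changed by 0.02, -0.05 and -0.05, and the genotypes were apart in Rfc3 only, at 1648 ± 10 against 1589 ± 5.

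Fen1 and Lig1, which act in turn on the lagging strand, had changes of opposite sign, neither past the threshold. Fen1 encodes the flap endonuclease that trims Okazaki fragments, and Lig1 the ligase that seals them. Fen1 had signals of 2996 and 2723 in wildtype and of 3478 and 3776 in deficient cells, with no overlap. The means were 2859 ± 193 and 3627 ± 211, a ratio of 1.27 and a change of 0.34 ± 0.10, with unadjusted p = 0.00852 and adjusted p = 0.592. Of all tested genes 1.44% had a p as small or smaller. The Fen1 value came from a probe set marked x, a mark Affymetrix gives to probes that may also bind other transcripts. The other Fen1 probe set, without that mark, read 2363 and 2413 against 2781 and 2469, also without overlap but with a change of 0.13 (unadjusted p = 0.235 in a fit over probe sets). Lig1 had 4567 and 4806 against 3961 and 4334, a change of -0.18 ± 0.09 (unadjusted p = 0.0965, adjusted p = 0.953). Both deficient arrays lay below both wildtype arrays. The subunits of RPA, the protein that coats single-stranded DNA, changed by 0.08 (Rpa1), 0.06 (Rpa2) and 0.11 (Rpa3). Rpa1 read 11442 and 10837 against 12106 and 11412, the lower deficient value falling just under the upper wildtype one. Rpa3 was at 3696 ± 175 against 3993 ± 83, without overlap and with unadjusted p = 0.258.

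Nucleotide supply genes had a median change of 0.001. Rrm1 and Rrm2 encode the large and small subunits of ribonucleotide reductase, which makes deoxynucleotides. Rrm1 read 6839 and 6009 in wildtype and 6318 and 6281 in deficient cells. Rrm2 read 13622 and 11421 against 13431 and 12012, and its wildtype pair enclosed the deficient pair, as it did for Rrm1. The changes were -0.03 ± 0.10 and 0.03 ± 0.11. Tk1, the cytosolic thymidine kinase of cycling cells, had 3384 and 3002 against 3704 and 3046, a change of 0.08 ± 0.12. Tyms, which encodes thymidylate synthase, was poorly measured by its own probe sets. The brightest read 101 and 49.3 in wildtype and 66.5 and 71.4 in deficient cells, and its interval ran from 0.554-fold to 1.70-fold. A probe set that the annotation assigns to both Tyms and its pseudogene Tyms-ps, which the selection leaves out and which was looked up after the values were seen, read 2701 and 2408 against 2967 and 2576, a change of 0.12.

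Among the regulators, E2f2 had the lowest change of all members. E2f2 is one of the activating E2F factors. It read 893 and 1074 in wildtype and 898 and 797 in deficient cells, a change of -0.21 ± 0.14 (unadjusted p = 0.162, adjusted p = 0.971), and 1 deficient array lay just above the lower wildtype array. E2f1, another activator, was at 355 ± 106 against 351 ± 18, a change of 0.01 ± 0.21. Ccne2, one of the E cyclins that activate CDK2, read 970 and 908 against 796 and 883, without overlap, a change of -0.16 ± 0.12. Its paralog Ccne1 changed by -0.03. Ccnd2, the D cyclin best known for its induction in stimulated lymphocytes, had 14367 and 15490 against 16477 and 15408, a change of 0.10 ± 0.09. The lower deficient value fell between the wildtype values. Ccnd3 was at 3693 ± 29 against 3479 ± 239, a change of -0.09 ± 0.10. Its dimmer probe sets gave -0.39 and -0.72 at signals of 65.8 to 147, the latter with unadjusted p = 0.0248 and adjusted p = 0.823 in the fit over probe sets.

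**Figure D3:**
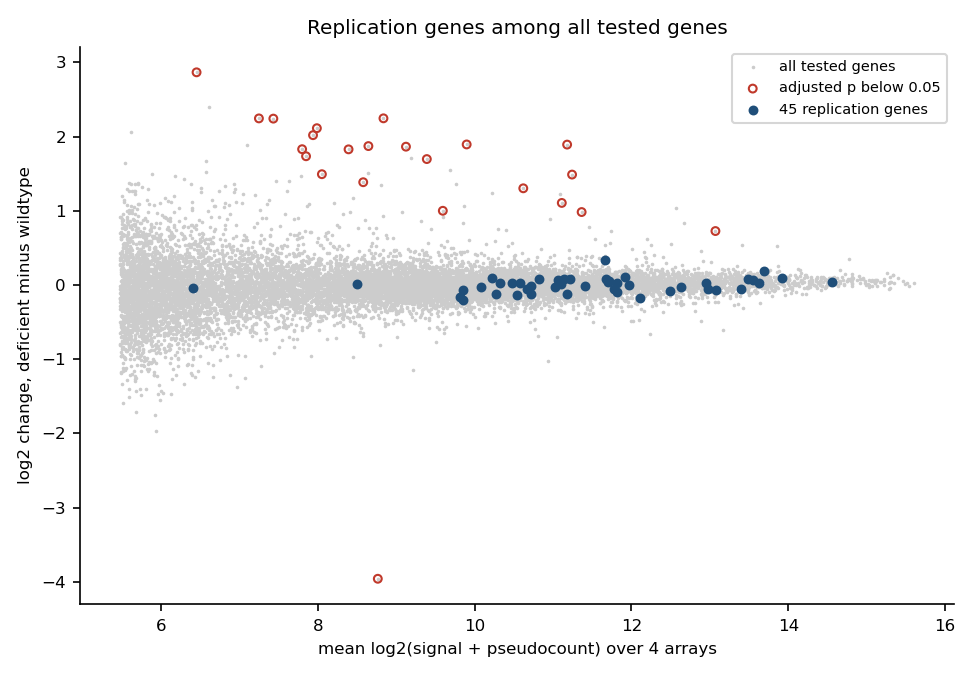
Change (log2, miR-146a-deficient minus wildtype) against mean log2(signal + 14.7) over the 4 arrays for the 12819 tested genes (grey), the 23 with an adjusted p below 0.05 (red rings) and the 45 replication genes (blue). The blue points run along 0 between -0.21 and 0.34, while the rings lie at changes of 0.73 or more in size.

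Which arrays stood apart was counted over the members. The genotypes did not overlap for 15 of the 45, or 33.3%, where 33.6% of all tested genes did not. Mcm5, Gins2, Rpa2, Rpa3 and Fen1 were higher on both deficient arrays, 5 genes against 15.9% of all tested genes. Mcm3, Mcm6, Cdc45, Cdc7, Pola1, Prim1, Rfc3, Lig1, Ccne2 and Ccnd3 were lower on both, 10 genes against 17.7%. These lists rest on the brightest probe set of each gene, which for Mcm5 and Fen1 carries the mark x. For Mcm3, for example, a dimmer one read 2229 and 2268 against 2328 and 2323, higher on both deficient arrays. The share of members is near that of the array as a whole.

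The members' differences had median sizes of 0.08 between the wildtype arrays, 0.10 between the deficient arrays and 0.06 between genotypes. For all tested genes these were 0.17, 0.17 and 0.12. Replicate differences compare single arrays, while genotype differences compare means of 2 arrays, which vary less. The sizes are therefore not like for like. Taken as replicate 2 minus replicate 1, the members' median difference was -0.04 in wildtype and -0.08 in deficient cells, where all tested genes had 0.005 and -0.01. Of the 45 members, 28 were lower on wildtype replicate 2 than on replicate 1, 34 were lower on deficient replicate 2, and 23 were lower on both, where 26.5% of all tested genes were lower on both. For 35 of the 45 the genotype difference was smaller than the larger of its replicate differences, as it was for 78.2% of all tested genes. Mcm4 and Rrm2 are examples, with replicate differences of -0.36 and -0.33 for Mcm4 and -0.25 and -0.16 for Rrm2 against genotype changes of 0.03 in each. The ratio of 3' to 5' signal of the Gapdh control, a sign of RNA quality, was higher on replicate 2 of each genotype, at 0.808 against 0.778 in wildtype and 0.778 against 0.746 in deficient cells. The beta-actin ratio was 1.17 and 1.30 in wildtype and 1.14 and 1.25 in deficient cells, and the transferrin receptor ratio 2.40 and 2.74 against 1.92 and 2.23. Each of the 3 ratios was thus higher on replicate 2 and, within a replicate number, lower in deficient cells, and for the transferrin receptor the genotypes did not overlap. The part of RNA quality in the members' differences, between replicates or between genotypes, was not tested.

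**Figure D4:**
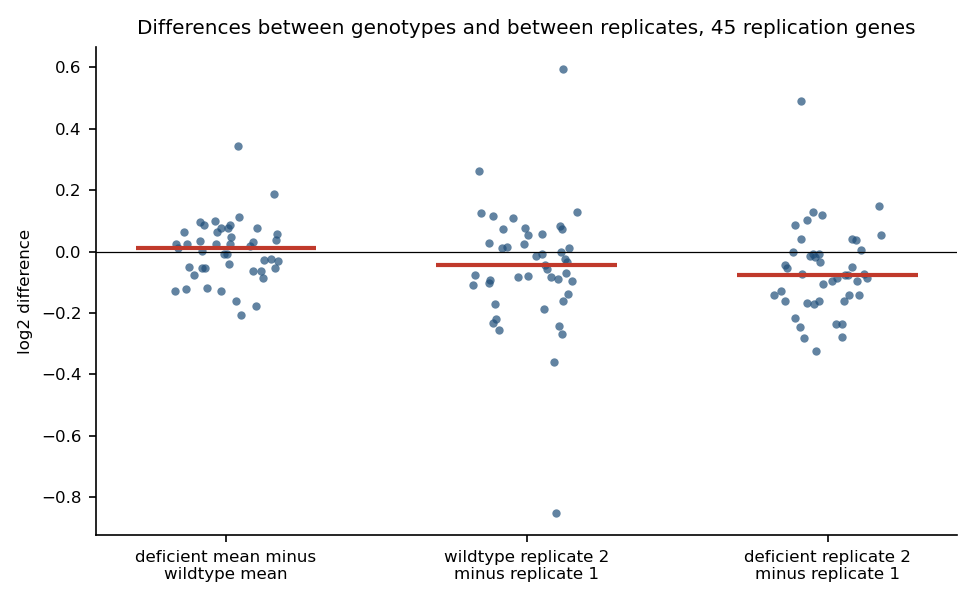
Log2 differences of the 45 replication genes between genotype means (left), between the 2 wildtype arrays (middle) and between the 2 deficient arrays (right), each point a gene and each red line the median. The medians are 0.01, -0.04 and -0.08. The points spread at least as widely between replicates, compared as single arrays, as between genotypes, compared as means of 2 arrays.

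The other probe sets of the members gave no call either. The members had 105 probe sets, of which 49 besides the brightest passed the filter, belonging to 32 genes. Of these 49, 28 had the sign of the brightest probe set and 21 the opposite sign, 1 had an unadjusted p below 0.05, and none passed after adjustment over 22809 probe sets, where 39 passed. The 34 with a mean signal of 500 or more lay between -0.23 (Mcm2) and 0.17, and larger values came from dim probe sets such as those of Cdc45 (-0.81) and Gins1 (0.54). Among the 45 brightest probe sets 5 carry the mark x and 3 the mark s, which stands for probes shared by several transcripts.

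**Figure D5:**
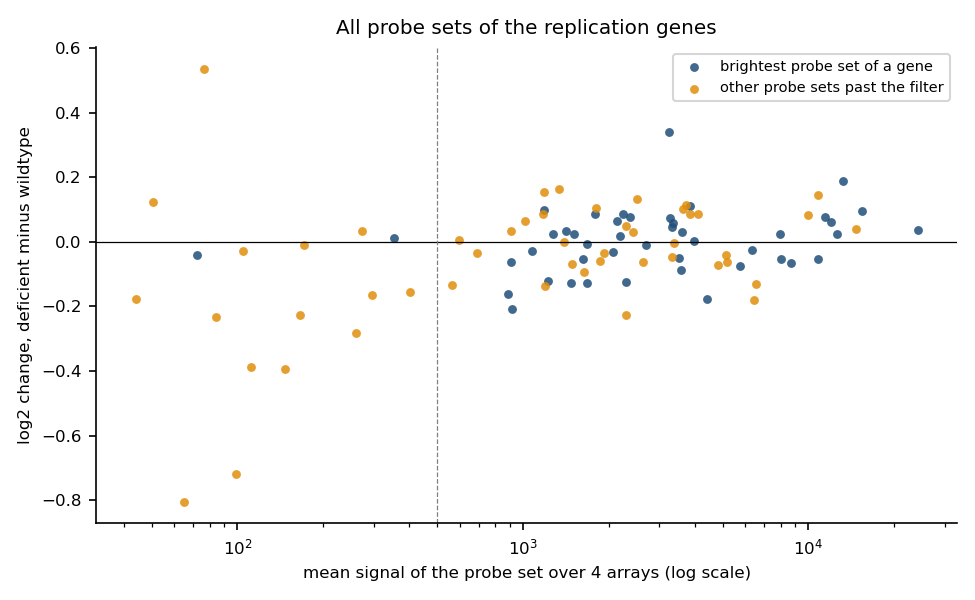
Change (log2, miR-146a-deficient minus wildtype) of every probe set of the replication genes past the filter, against its mean signal over 4 arrays (log axis); blue marks the brightest probe set of a gene, orange the others, and the dashed line a signal of 500. Right of the line the points lie between -0.23 and 0.34, and left of it the orange points reach -0.81 and 0.54.

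Other genes of the same pathway, listed by function, were also without a call. Of 22 tested fork and initiation genes none passed, 8 were higher and 14 lower, and the median change was -0.05. The smallest p were those of Dbf4, the activating partner of Cdc7, at 4872 ± 58 against 4383 ± 19 (-0.15 ± 0.09, unadjusted p = 0.118), and Pold3, a polymerase delta subunit, at -0.22 ± 0.14. Of 19 tested nucleotide genes none passed, 14 were higher and the median change was 0.04. Samhd1, which degrades deoxynucleotides, read 2709 and 3042 against 3310 and 3711, a change of 0.29 ± 0.11 (unadjusted p = 0.0262, adjusted p = 0.856). Dck, the kinase that salvages deoxycytidine, read 3838 and 3192 against 2732 and 2993, a change of -0.29 ± 0.12 (unadjusted p = 0.0343, adjusted p = 0.917). In each of these 2 genes the genotypes did not overlap. Of 26 tested G1/S regulators none passed, 8 were higher and 18 lower, and the median change was -0.09. Cdk6, a kinase partner of D cyclins, read 8078 and 9384 against 7360 and 7488 (-0.23 ± 0.10, unadjusted p = 0.0463), and E2f3, a further activating E2F factor, had -0.34 ± 0.15 (unadjusted p = 0.0493). Their adjusted p were 0.936 and 0.944. Cdk4, the other kinase partner of D cyclins, went the other way, with 3510 and 3852 against 4429 and 4146. Its change was 0.22 ± 0.10 (unadjusted p = 0.0510, adjusted p = 0.947).

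The genes of mitosis, the most similar group by function, gave much the same picture. Of 24 tested, none passed, 12 were higher and 12 lower, and the median change was 0.001. Kif23, a kinesin of the dividing cell's midzone, was at 1142 ± 110 against 864 ± 30, a change of -0.39 ± 0.12 (unadjusted p = 0.0109, adjusted p = 0.652), and Nuf2, a kinetochore protein, had -0.18 ± 0.11.

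What else differed between the arrays stands beside these values. The markers of CD4 T cells summed to signals of 57139 and 66561 in wildtype and 59627 and 64564 in deficient cells over 10 genes, and none of them passed. Markers of B cells summed to 1306 and 1696 against 3881 and 5007 over 11 genes, of which 9 passed the filter, 3 (Ms4a1, Blnk and Cd22) passed the adjusted threshold and all 9 were higher on both deficient arrays; Pax5 and Fcrla lay under the filter. Dendritic cell markers summed to 5626 and 6292 against 7120 and 6482 over 8 genes, with Itgax, Flt3, Xcr1 and Siglech under the filter. Of the 4 tested, 1 was higher and passed, Ccl22 at 485 ± 91 against 1839 ± 303, and 3 had changes below 0 that did not pass, Batf3 with -0.13, Zbtb46 with -0.04 and Cd209a with -0.29, for a median of -0.09. Monocyte markers gave 469 to 570, NK cell markers 415 and 525 against 670 and 961, and CD8 and cytotoxic markers 928 and 924 against 927 and 1151. Of the NK cell markers, Ncr1 and Klra8 lay under the filter. The 2 tested, Klrd1 and Eomes, were higher on both deficient arrays and did not pass. Their changes were 0.68 and 0.87, with unadjusted p = 0.0186 and 0.0113 in limma's fit. Replication genes are used by any dividing cell, and the part that other cells have in the members' signals was not tested; fewer cells of a type and less RNA per cell cannot be told apart in such samples. Leaving the markers of other cells out before the fit was chosen after seeing the data. It removes genes from the fit and leaves the members' signals unchanged, so it cannot show that part. In limma's fit without them, 0 members passed the adjusted threshold. There 1 member had an unadjusted p below 0.05, against 662 of 12796 genes.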

How the data were processed

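RNA of 4 samples, 2 per genotype in the labels, was labelled from 100 ng and measured on 4 arrays. For each array the authors deposited a linear intensity per probe set. MAS5 and the Transcriptome Analysis Console are listed, without version, in the submitters' processing notes. Each array's trimmed mean was 500, so values were already scaled. Detection calls were not used here. Array medians were 48.7 to 57.7, and the number of arrays limits the precision. Between array pairs, r over genes was 0.986 within genotypes and 0.984 to 0.985 between them.

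Of 45101 probe sets, 64 controls were left out; of the rest 34945 have 1 gene symbol in the platform annotation, 932 several and 9160 none. Signals were taken as log2(signal + 14.7), the pseudocount being their 25th percentile. Each gene kept its probe set with the highest mean signal, and genes from the 40th percentile of mean log2 up (a signal of 29.9) were tested, with no further scaling. Limma 3.58.1 in R 4.3.3 (lmFit, eBayes with intensity trend, 8.57 degrees of freedom, 2 from the arrays) compared deficient with wildtype, two-sided, with Benjamini-Hochberg adjustment over 12819 genes. The fit was tested on simulated data. Signals of every array are given for the 2 members of each role with the smallest p and the brightest member, and for some others. Per further list 2 genes are named, and Cdk4 was added after seeing the data. The 45 members, lists, tests and naming rule were chosen with earlier results of these data known. The 500 signal bound, the 1.5-fold bound, the probe set marks and the fit over probe sets were added after seeing the data. Figures used matplotlib 3.10.9 in Python 3.11.15.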

Additional observations from a re-analysis of the deposited data

How the results depend on the processing

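Over the 18 other settings, 0 members passed limma's adjusted threshold in each, and the members' median change stayed between -0.05 and 0.04, crossing 0. The count of all genes that passed went from 23 to 2 without a filter and to 14 with the mean of all probe sets. It was 0 without the intensity trend (765 with an unadjusted p below 0.05) and 40 at an adjusted p of 0.10. A count of genes that pass and a median change are not like for like. With every array kept, members with an unadjusted p below 0.05 numbered 2 (Fen1 and Ccnd3) with the mean of all probe sets. Of all genes tested there, 709 of 11921 had such a p. That setting tested 44 members, Tyms falling under the filter, as it did with a 60th percentile filter. With probe sets free of the x and s marks (chosen after seeing the data) the number was 0, against 672 of 12668 genes. Fen1 had 0.13 there. Replicate numbers are shared by the genotypes. Replicate differences in the 2 genotypes correlated across genes at only 0.054, though, so the numbers were not taken to pair the samples. With the replicate block 14 genes and 0 members passed the adjusted threshold, and the members' median was 0.01. Unadjusted, 1 member had a p below 0.05 with the block, against 735 of 12819 genes. Leaving out 1 array left 1 array of a genotype, assumed to vary like the others, and gave 19 to 100 genes: 99 without wildtype replicate 1, 100 without wildtype replicate 2 and 45 without deficient replicate 1. It gave medians of -0.048 to 0.041 and 27 to 31 members without overlap, as fewer arrays can overlap. These counts were not set against the share of all tested genes, so they cannot show whether the members stood apart. Fen1 was above 0 in all 18, from 0.13 to 0.41, and at 0.28 without deficient replicate 2. Its adjusted p in limma's fits that kept every array ran from 0.489 to 0.962. Settings that alter only the filter, the intensity trend, the replicate block or the adjusted threshold cannot alter a member's change. Agreement under these settings is fixed, and Fen1 stayed at 0.34 in them. Of 763 values of single members under other settings, 727 moved by less than the member's SD between replicates. That count includes values fixed in this way. The cause of these shifts was not tested. In the reported fit, a change below about 0.59 would not have reached the p of the last gene called for any member. The p needed differs where another number of genes passes.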
